A study of Mus musculus with 32 samples.

Results

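N4-acetylcytidine (ac4C) is cytidine that carries an acetyl group. The mark is written by the acetyltransferase NAT10, and in cultured cells it has been linked to the stability and translation of messenger RNA. Neurons move many messenger RNAs to synapses and translate them there, so a mark on synaptic RNA sits close to where proteins are made for a connection. The comparison described here covers the synapse fraction of the hippocampus, the brain region most studied for memory formation, in the control group alone, on days 1, 6 and 20. It shows how far an ac4C peak list of control tissue differed between time points when no learning group was involved.

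The 3 control synapse lists were chosen by their labels, fraction SYN, group C and day, out of 16 peak lists from 16 antibody-captured libraries. Together they hold 18826 peaks, which name 5033 of the 13143 genes named in any list of the series. All mice were of strain C57BL6/J and the tissue was hippocampus. The same fraction also has a group L, whose peak names in the files read Learning, with 1 list on each of the 3 days. Whole homogenate of day 6 has 3 control and 3 learning lists, and a separate set has 2 control and 2 conditional knockout (cKO) lists. The labels do not say which gene the cKO lacks, how many animals each library came from or what the control mice did on each day.

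RNA was cut to about 200 nt, an antibody to ac4C pulled down the marked pieces, and the authors gave a peak list for each such library. There is 1 control synapse list per day, so a difference between days cannot be told apart from a difference between 2 libraries, and no test between days was possible. Depth is unknown, because no reads are counted in the lists. A gene missing from a list may have had ac4C under the authors' threshold. In bulk tissue, fewer cells of a type and less RNA per cell cannot be told apart. Percentages are followed by exact Clopper-Pearson 95% intervals, which cover counting error only. All folds are the authors' enrichment values and serve only to rank the peaks of 1 list. The percentile given beside a fold is that rank, where 100 is the highest peak of the list.

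The lists held 6827 peaks in 3781 genes on day 1, 6413 peaks in 3492 genes on day 6 and 5586 peaks in 3354 genes on day 20. All 3 share a shortest peak of 200 bp. Their median peak lengths were 381, 278 and 289.5 bp, and the median folds were 4.69, 6.98 and 4.59. The day 1 list thus had the longest peaks and the day 6 list the highest folds. The learning synapse lists have shorter shortest peaks, of 125 bp on day 1, 150 bp on day 6 and 175 bp on day 20.

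Several of the highest-ranking peaks lay over the start of their gene, so the sequence there is shown for genes that kept such a peak and for genes that had it on 1 day. Each line gives 70 bases before the start site in lower case and the first 30 transcribed bases in capitals, 5′ to 3′ along the gene's strand. The sequences are RefSeq's for GRCm38.p6, the assembly that mm10 names.
Arid1b, chr17:4995004-4995103, plus strand, under a peak on days 1, 6 and 20: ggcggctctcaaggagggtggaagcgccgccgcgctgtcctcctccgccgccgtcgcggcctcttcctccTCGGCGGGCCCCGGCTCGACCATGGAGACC
Trim44, chr2:102400871-102400970, minus strand, under a peak on days 1, 6 and 20: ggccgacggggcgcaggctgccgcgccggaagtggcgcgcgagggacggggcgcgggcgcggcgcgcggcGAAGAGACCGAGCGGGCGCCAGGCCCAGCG
Basp1, chr15:25413735-25413834, minus strand, under a peak on days 1 and 6: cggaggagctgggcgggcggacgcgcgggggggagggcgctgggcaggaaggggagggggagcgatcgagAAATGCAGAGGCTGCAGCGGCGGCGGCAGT
Wscd1, chr11:71750945-71751044, plus strand, under a peak on days 6 and 20: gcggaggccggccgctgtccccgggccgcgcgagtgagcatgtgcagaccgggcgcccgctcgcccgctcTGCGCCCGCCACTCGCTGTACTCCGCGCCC
Zcchc14, chr8:121651904-121652003, minus strand, under a peak on day 1: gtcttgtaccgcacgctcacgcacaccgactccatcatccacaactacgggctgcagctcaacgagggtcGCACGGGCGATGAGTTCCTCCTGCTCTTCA
Pip5k1c, chr10:81292893-81292992, plus strand, under a peak on day 6: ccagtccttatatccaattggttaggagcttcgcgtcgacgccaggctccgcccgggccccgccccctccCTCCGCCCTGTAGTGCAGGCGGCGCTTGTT
Vamp4, chr1:162570758-162570857, plus strand, under a peak on day 20: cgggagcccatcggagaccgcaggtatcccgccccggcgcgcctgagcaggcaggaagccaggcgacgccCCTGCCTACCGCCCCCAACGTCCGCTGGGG

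The first 50 transcribed bases of Arid1b were 72% G or C, those of Trim44 78%, those of Vamp4 76% and those of Zcchc14 62%. Over all start sites under a control synapse peak, the median was 74% for the 64 sites covered on all 3 days, 72% for the 223 covered on 2 days and 70% for the 848 covered on 1 day. It was 66% for the 4368 other start sites of genes with a peak and 56% for all 32851 start sites in the table. Repeats of C in steps of 3 bases have been described near ac4C in human cells, so 4 CNN units in a row, where N is any base, were searched in these 50 bases on both strands. On the transcribed strand they were found at 39.1% (27.1% to 52.1%) of sites covered on all 3 days, 43.0% of those covered on 2 days, 34.3% of those covered on 1 day, 30.9% of the other start sites of genes with a peak and 21.1% of all sites. On the opposite strand the shares were 59.4%, 60.5%, 53.8%, 45% and 29%. The opposite strand held the letters more often in every one of these sets, and overlapping matches were counted once per site. In Vamp4 the first match began at base 6, in Wscd1 at base 3 and in Basp1 at base 12, while Trim44 and Zcchc14 had none in that window.

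At the level of genes, the control synapse list was partly stable from day to day. Of the 5033 genes, 2022 had a peak on all 3 days, which is 40.2% (38.8% to 41.5%). Another 1550 genes had one on exactly 2 days (30.8%) and 1461 on 1 day only (29%). Days 1 and 6 alone shared 598 genes, days 1 and 20 alone 596 and days 6 and 20 alone 356 (7.07%). Genes with a peak on a single day numbered 565 for day 1, 516 for day 6 and 380 for day 20. The shorter the list, the larger its share of genes that recurred on all 3 days, at 53.5% of the day 1 genes, 57.9% of the day 6 genes and 60.3% of the day 20 genes.

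At the level of positions, a smaller share recurred on all 3 days. A gene can hold several regions, so a lower share by position than by gene does not by itself show change over time. Peaks of the 3 lists that overlapped by at least 1 bp were chained into 13512 regions. Of these, 1261 held peaks of all 3 days, or 9.33% (8.85% to 9.84%), while 2534 held peaks of 2 days (18.8%) and 9717 of 1 day (71.9%). Single-day regions numbered 3536 on day 1, 3555 on day 6 and 2626 on day 20. The 3 homogenate control lists, all of day 6, also had a lower share by position, with 52.3% of genes and 25.8% of regions in all 3. The plot of counts by combination of days shows the contrast between genes and positions.

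**Figure D1:**
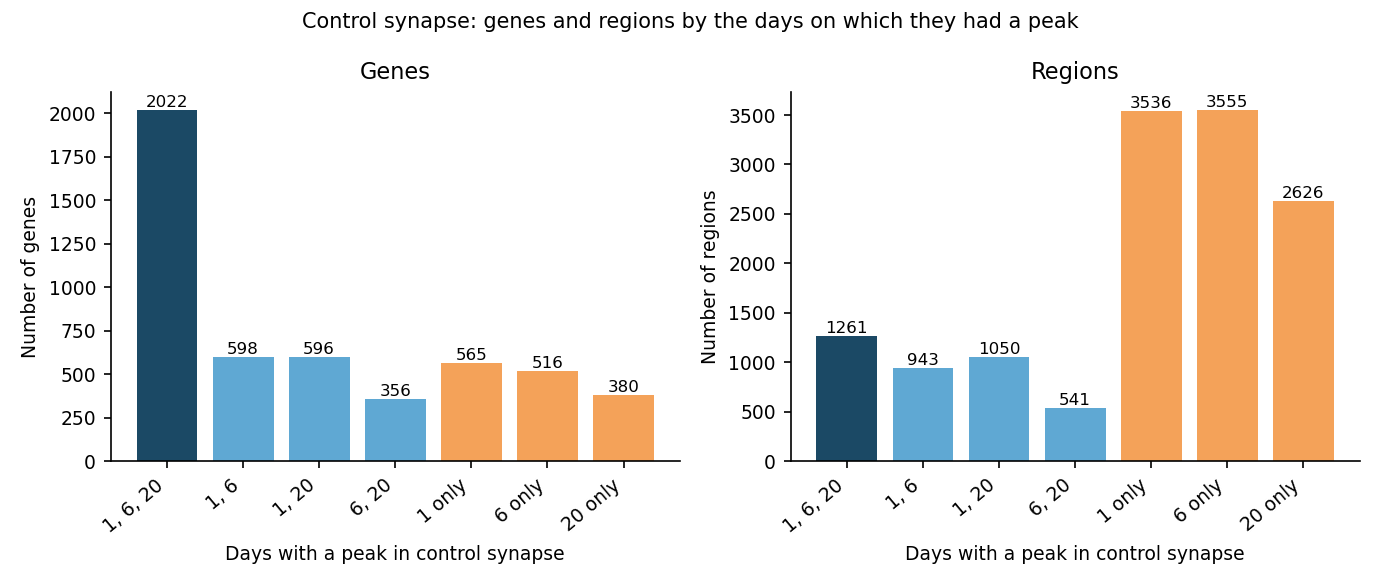
Number of genes (left) and of chained regions (right) by the days on which they had a peak in control synapse, 1 bar per combination of days. Genes with a peak on all 3 days form the tallest bar at 2022, whereas among regions the tallest bars are those of a single day, at 3536 for day 1 and 3555 for day 6.

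The days did not fall into an order of time. By gene names, days 1 and 20 shared 2618 genes, a ratio of shared genes to genes in either list of 0.580. That ratio was 0.563 for days 1 and 6 and 0.532 for days 6 and 20. By position, 34.0% of day 1 peaks were overlapped by a day 20 peak and 42.9% of day 20 peaks by a day 1 peak. For days 1 and 6 these shares were 32.4% and 35.7%, and for days 6 and 20 they were 27.6% and 31.3%. The pair farthest apart in time, days 1 and 20, was therefore the most alike on both scales, and days 6 and 20 the least alike. The day 1 list was also the longest in bases covered, with 3243934 bp against 2381932 bp on day 6 and 2049925 bp on day 20.

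A gene with a peak on every day did not always have it at the same place. Of the 2022 genes, 1104 (54.6%, 52.4% to 56.8%) had a region with peaks of all 3 days. In 715 (35.4%) some days overlapped but no region held all 3, and in 203 (10%) no 2 days overlapped. The highest-fold peaks of all 3 days overlapped one another in 490 genes (24.2%), and those of no 2 days overlapped in 637 (31.5%). Most genes had several peaks, but the share was similar among the 358 genes with exactly 1 peak on each day, where 211 (58.9%) had all 3 in 1 region and 47 (13.1%) had no overlap. Among the 1261 regions of all 3 days, 1136 (90.1%) had a stretch of bases covered on each day. The stretch covered by all 3 had a median of 239 bp, out of 718 bp covered by any of them.

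The genes with the highest-ranking regions on all 3 days spanned receptors, kinases, chromatin proteins and cytoskeletal linkers. They were chosen by rank in the same lists, so their folds are a description. Gsk3a, which encodes a serine/threonine kinase of the glycogen synthase kinase family, had folds of 30.4 on day 1, 99.9 on day 6 and 48.2 on day 20 at chr7:25237189-25237790. The 3 peaks nearly coincided, with 541 bp covered on every day out of 602 bp covered by any. Arid1b, a subunit of the BAF chromatin remodelling complex, had folds of 35.5, 70.2 and 21.6 on days 1, 6 and 20 over its start site, with 1033 bp in common. Aebp2, which encodes a partner of Polycomb repressive complex PRC2, had folds of 34.2, 108 and 19.8 at chr6:140623613-140624522. Chd3, the remodelling ATPase of the NuRD complex, had folds of 30.5, 109 and 17.5 at chr11:69368941-69369387. Each of these genes also had a peak on all 3 learning days and in all 6 homogenate lists. That was common: of all genes with a control peak on all 3 days, single learning lists held 72.0% to 86.4%. Single homogenate lists held 86.8% to 91.4% of them.

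Neuronal membrane and signalling genes were among them as well. Basp1, a membrane-attached protein of growing and mature nerve terminals, had folds of 47.2, 105 and 16.7 on days 1, 6 and 20, and 369 bp of its region were covered on every day. The region of Cbarp, which encodes a negative regulator of voltage-gated calcium channels, shared 1257 bp, with folds of 76.8, 46.2 and 76.5. Zc3h13, a component of the m6A methyltransferase complex, had folds of 18.6, 176 and 23.5 at chr14:75327427-75328266, far inside the gene at 43054 bp from the nearest listed start site. Trim44, Rasl10b, Plec and Wscd1 completed the 12. The lowest of their percentiles on any day was 95.8, for Wscd1 on day 6.

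Adra2c, the alpha-2C adrenergic receptor, shows what chaining can hide. It had the highest fold of the whole list on day 1, at 135.5, and again on day 20, at 214, and a fold of 78.2 on day 6. Its day 1 peak was 2809 bp long and reached over the others, yet the 260 bp peak of day 6 fell in the gap between the peaks of day 20, so no base was covered on all 3 days. The map of peak positions draws this gene beside others.

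**Figure D2:**
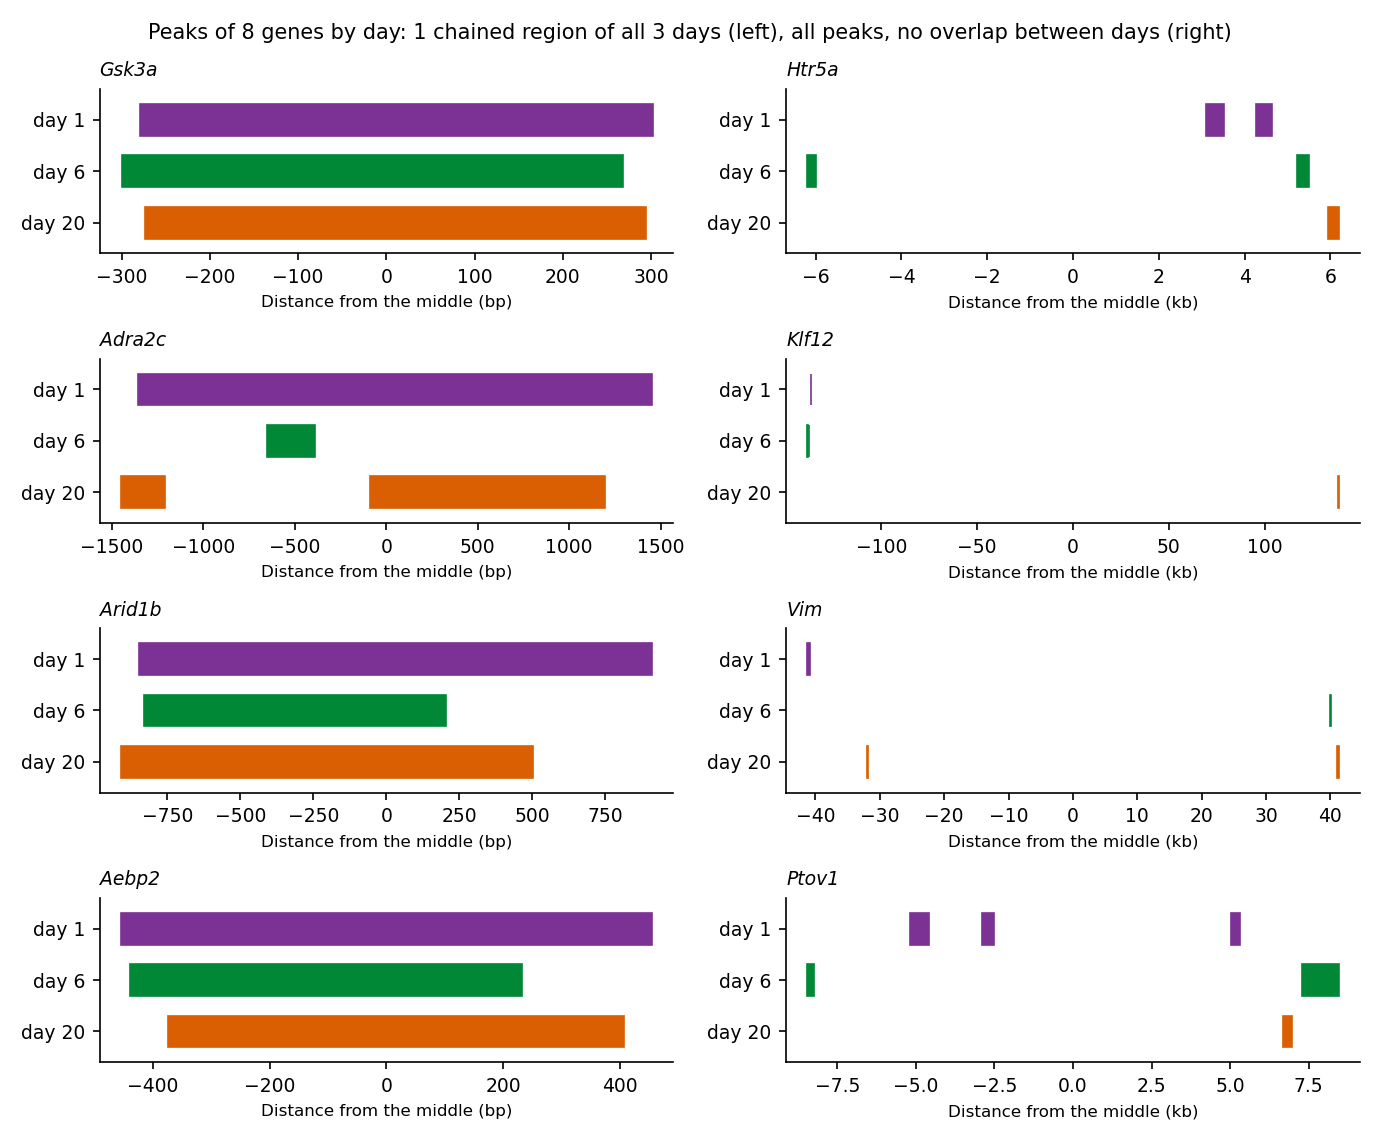
Peak positions in control synapse on days 1, 6 and 20 (rows) for 8 genes, as distance from the middle of the stretch shown, in bp on the left and kb on the right. On the left, Gsk3a, Arid1b and Aebp2 have peaks that coincide on all 3 days, and the day 6 peak of Adra2c falls between the peaks of day 20. On the right, Htr5a, Klf12, Vim and Ptov1 had peaks on every day with no overlap between days.

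Genes that kept a peak but not its place included a serotonin receptor and a transcription factor. Htr5a, the serotonin receptor 5A, had its highest peak on day 6 over its start site, with a fold of 29.3. On day 1 the highest peak was 9287 bp from that start site, with a fold of 16.2, and on day 20 it was 12113 bp away, with a fold of 9.21. Klf12, a Krüppel-like transcription factor, had a day 20 peak 208 bp from a start site, whereas its highest peaks of days 1 and 6 lay 274529 and 276411 bp from the nearest one. Polr3a, the largest subunit of RNA polymerase III, had peaks of days 6 and 20 within 397 bp of each other, while the nearest peaks of its least close pair of days lay 11424 bp apart. For Vim, the intermediate filament protein vimentin, the authors gave the gene's name to peaks outside its RefSeq span on days 6 and 20, at chr2:13655556-13655761 and chr2:13656666-13656865, so only the day 1 peak lay in the gene. Plekha3 had its highest peaks outside its span on all 3 days, and Ptov1 on days 6 and 20.

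Some genes with a peak on 1 day only ranked near the top of their list. On day 1 alone, Cttn, which encodes the actin-binding protein cortactin, had a fold of 42.6 at percentile 99.6, the highest rank of that class among genes with an established name. That peak lay outside the span of the gene, and Cttn had 6 peaks on day 1. Zcchc14, a zinc finger protein, had a fold of 19.7 over its start site on day 1, and Pdzrn3, a ubiquitin ligase, had one of 21.1. On day 6 alone, Lrch1 had a fold of 97.6, Acsl3, a long-chain acyl-CoA synthetase, and Sart3, a spliceosome recycling factor, had 82.1 each, and Pip5k1c, which makes the lipid PIP2 at synapses, had 73.1 over its start site. On day 20 alone, Pacsin3, a membrane-bending protein, had a fold of 36.0 at percentile 99.9. Vamp4, a SNARE protein of vesicle fusion, had 20.7, and the cyclin-dependent kinase Cdk17 had 20.0.

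Most of these single-day genes had peaks in lists that did not define the class. Of the 18 named, 16 had a peak in at least 1 learning synapse list and 17 in at least 1 homogenate list. Over all 1461 genes of a single day the shares were 76% and 94.2%, so these counts are near the background. Lrch1 had a peak on all 3 learning days and in all 6 homogenate lists, but none on control days 1 and 20. Zcchc14 had one on learning days 1 and 20 and in all 6 homogenate lists, and lies on chromosome 8, which the learning list of day 6 does not reach either. Vamp4 and Cdk17 had a learning peak on day 20 only, as in control, while Mtmr12, whose control peak lay outside the gene's span, had none on any learning day. Akap17b had none on learning days 1 and 20 and lies on the X chromosome, which the learning list of day 6 does not reach.

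Genes missing on a single day also carried high ranks on the other days. Slc17a7, the vesicular glutamate transporter VGLUT1 of excitatory terminals, had folds of 27.9 on day 1 and 125 on day 6 over its start site and no peak on day 20. Its learning lists had a peak on all 3 days. Rab11fip4, an effector of the recycling GTPase Rab11, had folds of 29.3 on day 1 and 51.1 on day 6. Missing on day 6 alone were Lig3, a DNA ligase, with folds of 32.4 on day 1 and 19.3 on day 20, Ptms with 20.2 and 15.8, Ppp1r26 and the protocadherin Pcdhb20. Missing on day 1 alone were Zfand3, with folds of 64.5 on day 6 and 31.5 on day 20, Pde6d, Nap1l4 and Frmd4a. Of these 12 genes, 11 had a learning peak on the very day on which control had none, and Mknk2, a kinase of the translation factor eIF4E, was the exception. Over all 1550 genes missing on 1 day, 53.1% had a learning peak on that day, counting genes that the learning list of day 6 does not reach. Within the part of the genome that every synapse list reaches, the shares were 50.3% for day 1, 59.7% for day 6 and 60.7% for day 20. The 12 were chosen for high rank, and the highest Mknk2 peaks of both days lay outside the gene's span.

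Peaks that recurred on all 3 days ranked higher and were longer than peaks seen on 1 day. Their median fold percentile was 66.6 on day 1, 64.2 on day 6 and 54.6 on day 20, against 43.9, 43.9 and 47.4 for peaks in single-day regions. Their median lengths were 541.5, 382.5 and 395 bp, against 328.5, 246 and 254 bp. A longer peak meets another list more easily, so folds were also compared within the 2 middle quartiles of length. There, 20.5% of the highest-fold quartile lay in regions of all 3 days on day 1, 27% on day 6 and 22.6% on day 20, against 9.0%, 11.8% and 16.2% of the lowest-fold quartile. Over all lengths these shares were 31.7%, 32.9% and 28.6% in the highest quartile of fold, against 11%, 12.1% and 18.3% in the lowest. The fold thus separated recurring peaks least on day 20.

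Recurring peaks also lay closer to the start of their gene, a property that the choice of regions did not use. Between 79.7% and 79.8% of the peaks of each list have a listed start site for their gene. Of these, 47.9% of day 1 peaks, 43.9% of day 6 peaks and 44.7% of day 20 peaks in regions of all 3 days lay within 500 bp of one, against 22.6%, 19.5% and 18.7% of peaks in single-day regions. A longer peak reaches a start site more easily, so peak midpoints were counted as well and gave 40.2%, 38.9% and 38.3% against 20.4%, 18.2% and 16.6%. Recurring peaks overlapped the span of the gene they are named for in 90.1% to 90.4% of cases, against 76% to 77.6% of single-day peaks.

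Lists that played no role in forming the classes separated them in the same order. A peak in the learning list of day 1 was found for 86.4% of genes with a control peak on all 3 days, 65.0% of those with 2 days and 44.5% of those with 1 day. In the 3 homogenate control lists the shares were 86.8% to 91.4%, 71.1% to 81.0% and 57.0% to 71.5%. Genes with a peak in all 3 homogenate controls made up 79.4%, 58.0% and 41.5% of the 3 classes, and genes with none in any of them 2.47%, 7.55% and 15.2%. The 2 control lists of the cKO set gave 68.9% and 76.6% for genes of all 3 days, and 36.9% and 37.0% for genes of 1 day. Median gene span was close in the classes, at 36074 bp for 3 days, 35041 bp for 2 and 32612 bp for 1. Only 17.7% of genes of all 3 days had at most 1 peak per list, against 76.3% of genes of 1 day. A gene of all 3 days has 3 lists in which to exceed 1 peak, so part of this gap follows from how the classes are defined.

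A gene or region seen on 1 control day could be a feature of that day or of that library, which was not tested. Single-day regions and genes were looked up in the learning lists of each day, which may share handling with the control list of that day. The learning list of day 6 stops within chromosome 7, at base 118984776 in the order of the file, and therefore only the part of the genome that every synapse list reaches was used. Of the 3018 regions seen on control day 1 only, 26.2% (24.6% to 27.8%) were overlapped by a learning peak of day 1, 17.0% by one of day 6 and 17.4% by one of day 20. Of the 3012 regions of control day 6 only, 12.5% were overlapped on learning day 1, 24.6% (23.1% to 26.2%) on learning day 6 and 11.3% on learning day 20. Regions of control days 1 and 6 thus recurred most often in the learning list of their own day. Each share rests on 1 pair of lists, and the intervals do not measure the spread between libraries. Within this reach the learning lists named 3150 genes on day 1, 3126 on day 6 and 2811 on day 20. The part of list size was not tested. The 2219 regions of control day 20 only had no such match, with 12.9%, 14.3% and 12.7% (11.4% to 14.2%) on learning days 1, 6 and 20.

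Genes seen on control day 1 or day 6 only also had a peak most often in the learning list of their own day. Of the 480 genes of control day 1 only, 54.8% had a peak on learning day 1, 37.5% on day 6 and 42.3% on day 20. Of the 420 genes of control day 6 only, 38.3% had one on learning day 1, 56.2% on day 6 and 36.2% on day 20. The 332 genes of control day 20 only gave 40.1%, 46.1% and 39.5%. In the other direction, the 288 genes missing on control day 1 alone had a peak on learning day 1 in 50.3%, on learning day 6 in 70.1% and on learning day 20 in 51.7%. The 499 genes missing on control day 6 alone gave 71.7%, 59.7% and 59.3%, and the 504 missing on control day 20 alone 70.8%, 71.4% and 60.7%. Whether control and learning tissue of 1 day were prepared or sequenced together is not given in the labels, so day and shared handling cannot be told apart.

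**Figure D3:**
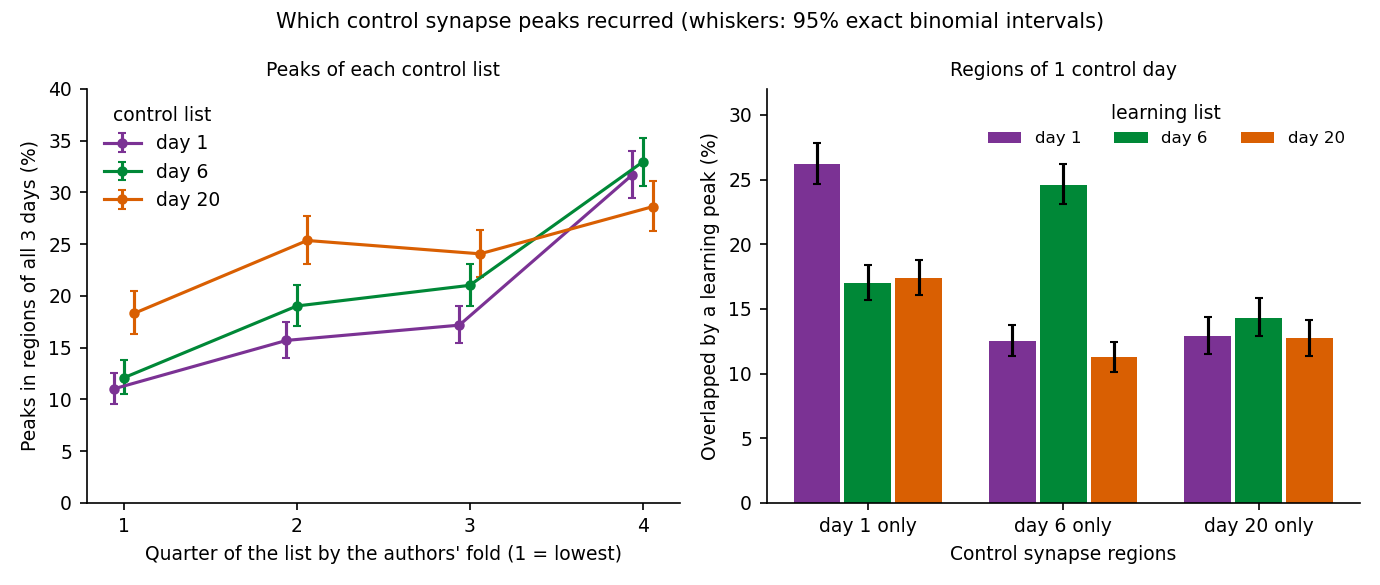
Left, the share of peaks in regions of all 3 days by quartile of the authors' fold within each control synapse list, in percent. Right, the share of single-day control regions overlapped by a learning peak of each day, in percent, within the reach of every list; whiskers are exact 95% intervals. Regions of control days 1 and 6 are matched most by the learning list of their own day, at 26.2% and 24.6%, and those of day 20 are not, at 12.7%.

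Over whole lists, control days were compared with each other and with the learning lists. Within the common reach, control and learning lists of 1 day had a ratio of shared genes to genes in either list of 0.636 on day 1, 0.595 on day 6 and 0.542 on day 20. Pairs of different control days had 0.567 for days 1 and 6, 0.579 for days 1 and 20 and 0.532 for days 6 and 20. The control list of day 20 was nearer to the control list of day 1 than to the learning list of its own day. Each value rests on 1 pair of lists and has no error of its own. Homogenate control lists, which share a day, had 0.626 to 0.707 among themselves and 0.292 to 0.347 with the control synapse lists.

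**Figure D4:**
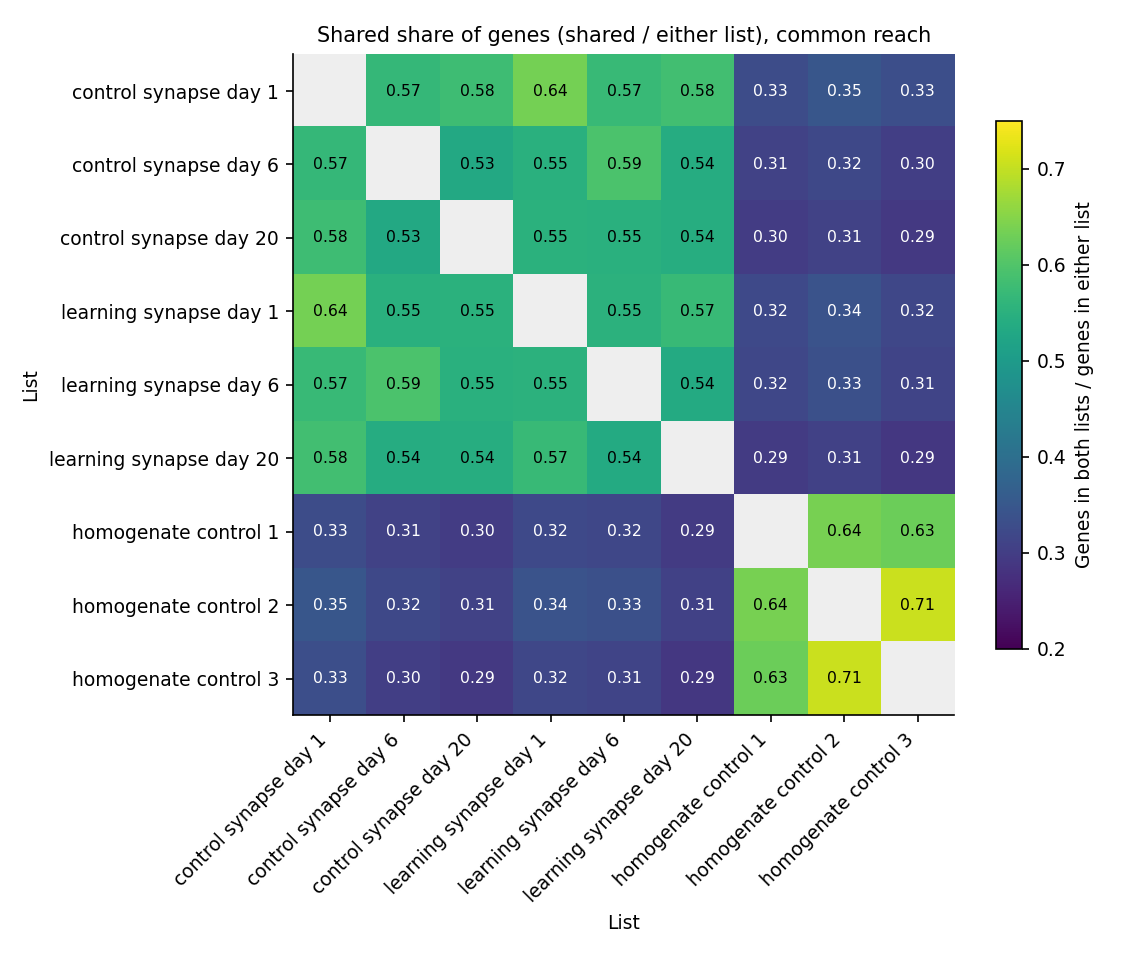
Ratio of genes in both lists to genes in either list for each pair of the control synapse, learning synapse and homogenate control lists, within the part of the genome that every synapse list reaches. Control synapse days share 0.53 to 0.58 with each other, up to 0.64 with the learning list of their own day and 0.29 to 0.35 with homogenate controls.

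The recurrence over 3 control days was set against 2 other sets of 3 lists, counted in the same way. With the 4717 top peaks of each list in the common reach, 36.9% (35.4% to 38.4%) of control synapse genes had a peak in all 3 lists, against 33.2% (31.8% to 34.7%) in learning synapse and 36.2% (34.8% to 37.5%) in the 3 homogenate controls of day 6. For regions the shares were 9.40% in control synapse, 6.56% in learning synapse and 24.9% in homogenate controls. At equal numbers of peaks, control synapse was thus close to homogenate by gene name and below it by position. With all peaks of the common reach, 40.3% of control synapse genes, 39.5% of learning synapse genes and 52.4% of homogenate control genes had a peak in all 3 lists, so the order by gene name depends on that setting. Peak lengths moved with the share of regions, with medians of 332 bp in control synapse, 219 bp in learning synapse and 577 bp in homogenate controls, and their part in the difference was not tested. Each set exists once, so no test of these differences was possible.

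Functional groups differed in how their members recurred. Each count on all 3 days is read against all genes with a control synapse peak, of which 40.2% had one on all 3 days. Counts of members with any peak stand beside the 5033 of 13143 genes named in any list that had a control synapse peak. Member totals, unlike the 13143, also hold genes named in no list. Of the 79 ribosomal protein genes 58 were named in any list, and of the 76 respiratory chain genes 69. The folds given are those of the peaks in the region of all 3 days, unless a highest peak is named. The intervals of the GABA, glutamatergic, cytoskeleton, signalling, translation factor, splicing, RNA modification and heat shock lists hold the 40.2% of all genes. Those of all 6 marker lists do too. By point value, genes of glutamatergic synapses and ion channels lay above that share, as did vesicle release genes. Vesicle release genes were below all genes when a fold of at least 5 was required. That setting lowered the excess over all genes to 1.20 percentage points for glutamatergic genes, against 16.2 as reported, and to 6.42 for ion channels, against 24.5. Of 44 genes for synaptic vesicles and presynaptic release, 39 had a peak on some day and 26 of them (66.7%, 49.8% to 80.9%) on all 3 days, and 17 had a region of all 3 days. Pclo, which encodes the active zone scaffold piccolo, had folds of 24, 36.1 and 10.9 on days 1, 6 and 20 in a region that covers its start site, although the peaks of days 1 and 20 stop 23 and 82 bp from it. Syt7, a calcium sensor of vesicle fusion, had 15.9, 13.6 and 12.4. Syp had a peak on day 20 only, Vamp2 on day 6 only, and Syn3 and Stx1a on none.

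Glutamate receptors and postsynaptic density genes had 39 of 49 members with a peak, 22 of them (56.4%, 39.6% to 72.2%) on all 3 days and 15 with a region of all 3 days. Lrrc4b, a postsynaptic adhesion protein, had folds of 10.6, 159 and 21.2 on days 1, 6 and 20, with the peaks of days 1 and 20 outside the gene's span, and Cacng2, the AMPA receptor auxiliary subunit stargazin, had 5.49, 17.7 and 25.9. Several central members had a peak on 1 day. Gria2, an AMPA receptor subunit, had a peak on day 1 only, with a fold of 2.14 and outside the gene's span, and Grin2b, an NMDA receptor subunit, on day 6 only, with 2.99. Named after its values were seen, Dlg4, the scaffold PSD-95, also had a peak on day 6 only, with a fold of 20.7, while its learning lists had one on all 3 days. Gria3 had none.

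Voltage-gated ion channels had 34 of 39 members with a peak and 22 (64.7%, 46.5% to 80.3%) on all 3 days. Hcn2, a pacemaker channel of the HCN family, had folds of 16.4, 31.6 and 5.25, of which only the day 6 peak lay over its start site. Kcnn2, counted in this list although it is a calcium-activated potassium channel, had 9.74, 60.3 and 7.98. Of the GABA genes, 5 of 18 members with a peak (27.8%, 9.69% to 53.5%) had one on all 3 days, an interval that holds the 40.2% of all genes. Among them were the receptor subunit gene Gabbr2, the transporter genes Slc6a11 and Slc32a1, and the chloride exporter gene Slc12a5. Gabbr2 had folds of 7.06, 20.2 and 10.5. Of the GABA-A receptor genes, Gabra2 had a peak on day 6 only, and Gabra4 had none.

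Immediate early genes, which neurons switch on within minutes of activity, had peaks in control synapse. Of 27 such genes, 20 had a peak and 13 of them (65%, 40.8% to 84.6%) had one on all 3 days, 11 with a region of all 3 days. With a fold of at least 5 required, the excess over all genes was 12.2 percentage points, against 24.8 as reported. Jun, a subunit of the transcription factor AP-1, had folds of 22.8, 115 and 8.02 on days 1, 6 and 20. Its relative Jund had 41.3, 41.8 and 8.57, and Ier5 had 20.7, 18.1 and 16.9. Egr1, a zinc finger transcription factor, had 7.32, 18.2 and 5.58, and Nptx2, a secreted protein that clusters AMPA receptors, had 5.42, 32.9 and 7.33. Fosb, Fosl2, Egr2, Npas4, Ier2, Btg2 and Klf4, the last 3 of them named after their values were seen, had no peak on any control synapse day. Each had one in 2 or all 3 homogenate controls. The homogenate controls name 11389 genes in any list, against 5033 in control synapse, so a homogenate peak without a synapse peak was common.

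Day 6 held the fewest genes of this list. It had 14 of the 27 genes, against 20 on day 1 and 18 on day 20. Named after their values were seen, Fos, Junb, Egr4, Sgk1 and Trib1 were all missing on day 6 alone. Fos had folds of 4.92 on day 1 and 4.52 on day 20, and Trib1 had 11.5 and 9.31. In learning synapse, Sgk1 and Trib1 had a peak on all 3 days, Fos on day 1 and Egr4 on day 20. Junb lies on a chromosome that the learning list of day 6 does not reach. For comparison, 26.6% of the 13143 genes had a peak on control day 6, against 28.8% on day 1 and 25.5% on day 20.

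Cytoskeleton and transport genes were at 25 of 45 (55.6%, 40% to 70.4%), which was below all genes when a fold of at least 5 was required. The microtubule-associated Map1a had folds of 16, 7.84 and 4.40 on days 1, 6 and 20. Calcium, cAMP and MAP kinase signalling genes were nearer to all genes, at 21 of 46 (45.7%). Among these, Gnaq, a G protein alpha subunit, had folds of 9.92, 28.8 and 11.6, and Adcy5, an adenylyl cyclase, had 21.5, 60.1 and 8.40. Camk2a, the kinase subunit best known for its messenger RNA in dendrites, had highest peaks of 3.49, 9.81 and 3.57. Camk2d and Camk4 had a peak on day 20 only. Heat shock and ubiquitin-proteasome genes were at 14 of 32 (43.8%) and below all genes with a fold of at least 5 or a length of at least 300 bp, with Ube3a, a ubiquitin ligase, at 12.4, 24.6 and 5.72.

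Genes of the cytosolic ribosome and the respiratory chain had small shares on all 3 days. Of 79 cytosolic ribosomal protein genes, 38 had a peak and 8 of these (21.1%, 9.55% to 37.3%) had one on all 3 days, while 20 had it on 1 day. Rpl29, a protein of the large subunit, had folds of 2.41, 3.89 and 3.76. Of 76 nuclear genes of the respiratory chain, 46 had a peak and 5 (10.9%, 3.62% to 23.6%) had one on all 3 days. The other end of that list was large, with 29 genes (63.0%) on 1 day, 18 of them on day 1. Cox6a1, a subunit of cytochrome c oxidase, was the only member with a region of all 3 days, at folds of 3.24, 5.94 and 2.55. With a fold of at least 5 required, the gap of respiratory chain genes to all genes was -6.35 percentage points, against -29.3 as reported. That of ribosomal protein genes was -15.7, against -19.1. Ribosomal protein genes have many processed copies in the mouse genome, and how the authors treated reads that match several places is not given in the sources used here.

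Translation factors were at 11 of 29 (37.9%), which was above all genes with a fold of at least 5 or equal numbers of peaks, with Eif5b, which joins the ribosomal subunits, at 29.2, 20.4 and 11.6. Splicing factors and hnRNPs were at 10 of 33 (30.3%), and above all genes with a fold of at least 5. Hnrnpd had folds of 48.8, 21.2 and 28.8, of which only the day 6 peak lay over its start site, and the neuronal splicing factor gene Nova2 had 16.2, 56.2 and 7.99, with the peaks of days 6 and 20 outside the gene's span. Of 40 chromatin genes, 20 had a peak and 13 of these (65%) had one on all 3 days, led by Arid1b and Chd3. Arid1a, another BAF subunit, had folds of 14.5, 23.9 and 13.7. Among 30 RNA modification enzymes and readers, 14 had a peak and 7 of them (50%) had one on all 3 days, a share that was below all genes with a length of at least 300 bp, including Zc3h13, the RNA editing enzyme Adarb1 and the m6A readers Ythdf1 and Ythdc1. Nat10, the enzyme that writes ac4C, and the m6A methyltransferase genes Mettl3 and Mettl14 had no peak on any control synapse day. They had one in 2, 2 and 3 homogenate controls, which name 11389 genes in any list, against 5033 in control synapse.

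**Figure D5:**
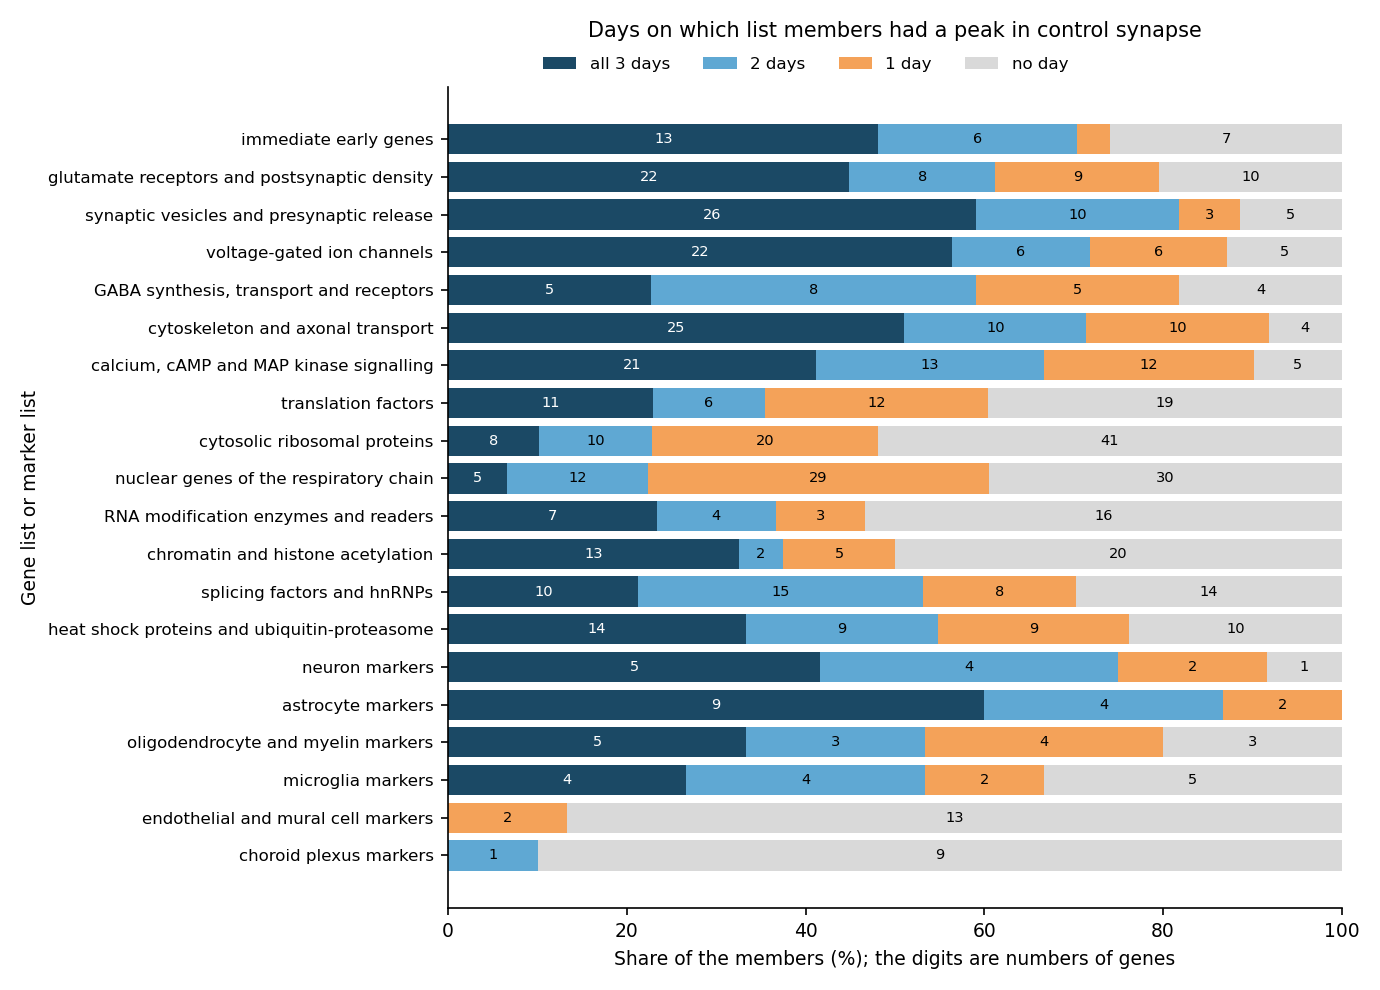
Share of the members of 14 gene lists and 6 marker lists with a peak in control synapse on all 3 days, 2 days, 1 day or no day, in percent of all members, with numbers of genes as digits. Presynaptic genes have 26 of 44 members on all 3 days, and nuclear respiratory chain genes 5 of 76, against 2022 of the 13143 genes named in any list. Of the 76, 69 are named in any list.

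Markers of neurons and of glia both had peaks in the synapse lists. For comparison, 5033 of the 13143 genes named in any list of the series had a control synapse peak. Not all markers were named in any list: 13 of 15 microglia, 12 of 15 endothelial and mural, and 8 of 10 choroid plexus markers were. Of 12 neuron markers, 11 had a peak and 5 of these (45.5%) had one on all 3 days, namely Rbfox3, Snap25, Tubb3, Nefl and Camk2a. Snap25, a SNARE protein of nerve terminals, had folds of 3.82, 5.62 and 4.59. All 15 astrocyte markers had a peak, 9 of them (60%) on all 3 days, and Sox9, a glial transcription factor, had highest peaks of 7.56, 27.2 and 8.01. Of these 9, 6 had a region of all 3 days, while Gfap, Aqp4 and S100b had none. Of 12 oligodendrocyte markers with a peak, 5 (41.7%) had one on all 3 days, 3 of them with a region of all 3 days. Mbp, the myelin basic protein, was among the 5 but had no such region. Its highest peaks were 6.91, 65.1 and 10.3, and those of days 1 and 6 lay outside the gene's span. Of 10 microglia markers with a peak, 4 (40%) had one on all 3 days, among them Cx3cr1 at 6.05, 69.0 and 19.1. Only 2 of these 4 had a region of all 3 days. C1qc, with highest peaks of 4.23, 4.51 and 3.19, and Itgam, with 2.38, 8.77 and 3.29, had none. Endothelial and mural markers had 13 of 15 with no peak, the others, named after their values were seen, being Slc2a1 on day 1 and Pdgfrb on day 20. Choroid plexus markers had 9 of 10 with none, and Enpp2, named in the same way, had one on days 6 and 20. The part of glial RNA in any result above was not tested.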

How the data were processed

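Peak lists of 16 ac4C-captured libraries of mouse hippocampus were used, 3 of them from control synapse. The submitters' processing notes name HISAT2 2.0.4, cutadapt 1.9.3, FastQC and the genome build mm10. Which peak caller was used is not given in the sources used here. A list belongs to 1 library, so peaks were called per sample. Per the file headers, a peak has the authors' -log10 q-value and -log10 p-value, their fold over background, and a deposited score, besides a gene name. The strand column reads plus throughout and was not used. The deposited lists give no counts, so depth and its precision are unknown.

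Positions are 1-based. Peaks of the 3 control synapse lists that overlapped by at least 1 bp were chained into regions. Genes were matched by symbol: of 5033 names, 5027 were current in RefSeq's GRCm38.p6 table and 6 were updated through a synonym. A peak lay inside a gene when it overlapped the RefSeq span. Start sites came from RefSeq promoter sequences. Shares have Clopper-Pearson intervals. With 1 list per day there was no test between days. Computation used Python 3.11.15, pandas 2.3.3, numpy 2.4.6, scipy 1.17.1 and matplotlib 3.10.9, and the counting steps recovered all 9 quantities checked on 12000 simulated regions.

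Genes were named by rank: 12 with a region of all 3 days by their lowest fold percentile, 6 per single day, 4 per missing day, 6 with peaks on all 3 days and no overlap, up to 5 stable and 4 unstable or absent members per gene list, and markers present on all 3 days. Predicted symbols were skipped. Some genes that these rules name are not reported here. The members, the 14 gene lists and the 6 marker lists were chosen with earlier results of these data known. Alternatives raised the fold, the -log10 p-value or the peak length required, equalised the lists, kept the common reach or peaks inside genes, kept deposited symbols, and changed the overlap rule.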

Additional observations from a re-analysis of the deposited data

How the results depend on the processing

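Peak strength and length moved the counts most. With a fold of at least 5, 783 genes (19.4%) had a peak on all 3 days and regions of 3, 2 and 1 days numbered 427 (5.61%), 1174 and 6012. With peaks of at least 300 bp, 853 genes (22.4%) did, and regions numbered 553 (7.39%), 1441 and 5489. Of the genes on all 3 days, 52.4% and 58.7% then had a region of all 3 days. The share of genes was 35.2% with a -log10 p of at least 10, 36.6% with equal numbers of top-ranked peaks and 34.9% with peaks inside the named gene only. The share of regions was 8.49% when the overlap had to reach 50% of the shorter peak, and 8.41% when a base had to be covered on all 3 days, an alternative chosen after seeing the data. Joining peaks within 100 bp, keeping the common reach and keeping deposited symbols left these counts and shares within their limits. Causes were not tested, beyond fewer peaks remaining under stricter thresholds.

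For a gene list, the share on all 3 days minus that of all genes turned its sign 13 times. With a fold of at least 5 it became -8.28 points for cytoskeleton genes, -8.28 for neuron markers, -4.24 for presynaptic genes, -4.01 for heat shock and proteasome genes, 1.44 for splicing factors, 3.34 for translation factors and 20.6 for microglia markers. Translation factors also turned to 1.33 with equal numbers of peaks. Peaks inside the gene gave -4.93 for oligodendrocyte and 9.51 for microglia markers, the common reach -0.326 for neuron markers, and a length of at least 300 bp -6.99 for RNA modification and -0.149 for heat shock and proteasome genes. The gap of GABA genes shrank to -1.21 points with a fold of at least 5, and that of respiratory chain genes to -6.35. The other lists kept their sign under each alternative that gave a value. The number of days of the 48 genes named by rank changed for 6 with peaks inside the gene, 14 with at least 300 bp and 6 within the common reach. No paired analysis was possible because each day has 1 control synapse list and no test was made. Leaving out a replicate was likewise not possible.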

Other observations

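The only peak on the Y chromosome in the control synapse lists was in Ddx3y, an RNA helicase gene, on day 6 with a fold of 2.86. Among the learning synapse lists, Ddx3y had a peak on day 1, with a fold of 2.89, and the learning list of day 6 does not reach that chromosome.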
